A study of Mus musculus with 14 samples.

Results

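Genes that serve the mature Müller glia of the mouse retina were examined for histone H3 lysine 27 acetylation (H3K27ac) in the embryonic retina, well before these cells are formed. The 9 genes were Glul, Slc1a3, Kcnj10, Aqp4, Rlbp1, Apoe, Clu, Vim and Gfap, chosen as known Müller glia genes from 22367 protein-coding genes of the GENCODE vM1 annotation on mm9. For each gene, the H3K27ac peaks that overlapped its gene body extended by 20 kb on either side were taken from the peak list of E14 retina, and 10 of the 13463 peaks in the list were found this way. A gene was called acetylated at its promoter where a peak came within 1000 bp of any of its annotated transcription start sites (TSSs). By this call 4 genes (Glul, Slc1a3, Apoe and Vim) had a TSS peak at E14 and 5 (Kcnj10, Aqp4, Rlbp1, Clu and Gfap) had none.

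Müller glia are the principal glial cells of the retina. They span its whole thickness, clear glutamate from the synapses and turn it into glutamine, carry potassium and water between neurons and the vitreous and vessels, take part in the recycling of visual pigment for cones, and supply lipid carriers. They arise from late retinal progenitor cells (RPCs) at the end of neurogenesis and keep many progenitor genes active. H3K27ac is laid down on nucleosomes at active promoters and enhancers.

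The peak list came from CD1 mice at embryonic day 14, an outbred strain, with the cell type given by the labels as retinal progenitor cells. By the study's methods the chromatin was from whole dissected retinas that were not sorted, so neurons already born were present beside progenitors, and no transgene, Cre line or knockout is described for it. The list is a single one, called on 2 pooled replicate libraries against 1 isotype control, so a peak has no replicate error and no difference below carries a test. The ChIP libraries held 113543038 tags after filtering and the isotype control 9210563, of which the latter sets how finely the background could be estimated.

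The label of the sample was checked at the TSSs of marker genes. The RPC markers Rax, Six6, Pax6, Sfrp2, Fgf15 and Ccnd1 had a TSS peak. So did all 3 genes taken here to stand for the retinal ganglion cell lineage (Pou4f2, Isl1 and Atoh7). No TSS peak was listed for the 3 photoreceptor, 4 pigment epithelium, 3 lens, 3 astrocyte and 3 microglia markers. Of 4 endothelial markers only Kdr had one, a gene that the study's curated list also marks for Müller glia, and of 3 red blood cell markers only Klf1. In chromatin from whole tissue, acetylation in a few cells and weak acetylation in many cells cannot be told apart. The astrocyte markers (Pax2, Pdgfra and Aldh1l1) bear on the genes described here because retinal astrocytes also express Gfap, Aqp4, Slc1a3 and Glul. A peak list holds only what passed the caller, so an unlisted promoter may carry acetylation under that limit.

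The sequences just upstream of the genes are shown because the share of CpG dinucleotides in them ran from dense to nearly absent. Each is 150 bases of mm9, written 5′ to 3′ on the strand of the gene, and ends at the base before the start of the gene's protein-coding transcripts (the more upstream of the GENCODE vM1 and RefSeq starts, the latter placed on mm9 by exact match of the RefSeq GRCm38.p6 promoter sequence, which succeeded for 7 of these 8 genes and not for Clu). Capitals mark CpG. At Gfap a non-coding transcript starts further upstream, at 102762226, so the stretch shown lies inside the annotated gene body. The first 4 belong to genes with a TSS peak and the other 4 to genes without.
Glul (chr1:155746909-155747058, plus strand, 11 CpG): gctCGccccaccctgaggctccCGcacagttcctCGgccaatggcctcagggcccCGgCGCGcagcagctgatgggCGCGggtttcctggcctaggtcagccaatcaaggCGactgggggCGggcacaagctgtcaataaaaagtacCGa
Vim (chr2:13495404-13495553, plus strand, 8 CpG): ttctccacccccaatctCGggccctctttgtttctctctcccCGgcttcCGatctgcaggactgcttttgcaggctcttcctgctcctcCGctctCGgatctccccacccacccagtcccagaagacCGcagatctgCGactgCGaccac
Apoe (chr7:20284538-20284687, minus strand, 6 CpG): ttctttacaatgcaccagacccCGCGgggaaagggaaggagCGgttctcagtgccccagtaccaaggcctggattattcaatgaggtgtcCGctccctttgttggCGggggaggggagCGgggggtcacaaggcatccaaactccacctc
Slc1a3 (chr15:8660808-8660957, minus strand, 2 CpG): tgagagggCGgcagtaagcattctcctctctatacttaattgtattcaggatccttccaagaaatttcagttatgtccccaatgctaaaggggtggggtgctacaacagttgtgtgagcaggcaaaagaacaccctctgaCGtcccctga
Kcnj10 (chr1:174271191-174271340, plus strand, 10 CpG): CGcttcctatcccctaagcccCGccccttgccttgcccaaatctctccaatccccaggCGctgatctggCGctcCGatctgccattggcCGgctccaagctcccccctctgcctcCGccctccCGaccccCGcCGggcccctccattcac
Clu (chr14:66587170-66587319, plus strand, 2 CpG): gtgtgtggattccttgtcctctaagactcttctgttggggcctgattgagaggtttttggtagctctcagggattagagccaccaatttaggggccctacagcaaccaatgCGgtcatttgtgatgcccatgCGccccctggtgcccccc
Rlbp1 (chr7:86531914-86532063, minus strand, 2 CpG): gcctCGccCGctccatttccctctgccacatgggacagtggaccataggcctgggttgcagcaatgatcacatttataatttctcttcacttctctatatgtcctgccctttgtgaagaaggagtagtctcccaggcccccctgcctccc
Gfap (chr11:102758515-102758664, minus strand, 1 CpG): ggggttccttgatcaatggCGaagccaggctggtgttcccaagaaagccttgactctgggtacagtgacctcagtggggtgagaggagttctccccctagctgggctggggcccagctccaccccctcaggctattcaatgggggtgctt

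Glul and Kcnj10 had the most CpG in these stretches, with 11 and 10. Vim followed with 8 and Apoe with 6, and Slc1a3, Clu, Rlbp1 and Gfap had only 2, 2, 2 and 1. The whole stretch lay inside the E14 peak at Glul and at Vim. At Apoe the peak reached only into the part nearest the gene, and at Slc1a3 the stretch lay wholly outside it.

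Glul codes for glutamine synthetase, the enzyme that turns the glutamate taken up by the glia into glutamine. Glul (ENSMUSG00000026473.9, chr1:155747074-155756853, plus strand) carried the strongest TSS peak among the 9 genes. The peak, chr1:155746441-155748266, was 1826 bp long and reached 633 bp upstream and 1192 bp downstream of the start. Its mean pileup, the ChIP tag coverage scaled to the depth of the isotype control, was 21.26. Its fold enrichment over the local isotype background was 5.49 and its q-value 2.14e-09. Among the 10302 peaks at protein-coding TSSs it stood at percentile 86.7 by pileup, 72.3 by fold enrichment and 86.4 by length. It was the only TSS peak of the 9 genes to pass the stricter limits used here (fold enrichment no lower than 4, q-value no higher than 0.001). The same peak covered the TSS of 5830403L16Rik (ENSMUSG00000045968.6), a protein-coding gene on the opposite strand that starts 264 bp from the Glul start, so acetylation that belongs to Glul and to 5830403L16Rik cannot be told apart. No other peak lay in the Glul window.

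Slc1a3 codes for GLAST, the main glutamate transporter of Müller glia. Slc1a3 (ENSMUSG00000005360.8, chr15:8584124-8660764, minus strand) had a short and weak TSS peak, chr15:8660113-8660765. It measured 653 bp, with a pileup of 10.27, a fold enrichment of 3.68 and a q-value of 0.00381. These values put it at percentile 7.91 of TSS peaks by pileup, 15.2 by fold enrichment and 21.3 by length. The peak lay almost wholly on the gene side of the start, reaching 1 bp upstream and 651 bp downstream, and held 5 of the 8 annotated TSSs. The RefSeq start, 43 bp further upstream, was outside it.

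Slc1a3 was also the only one of the 9 genes with a peak at no TSS of any gene. This peak, chr15:8582114-8582975, lay between genes, 1149 bp past the 3′ end of Slc1a3. It was 862 bp long with a pileup of 7.09, a fold enrichment of 3.27 and a q-value of 0.0344. It was thus among the faintest in the list, at percentile 2.26 of all peaks by pileup and 6.76 by fold enrichment. The 2855 peaks at no TSS had a median pileup of 9.90 and a median fold enrichment of 3.79, so it was below the middle of its own class by both. The middle 150 bases of the peak are shown, with CpG in capitals, for contrast with the promoters above.
Slc1a3 downstream peak (chr15:8582469-8582618, plus strand, 3 CpG): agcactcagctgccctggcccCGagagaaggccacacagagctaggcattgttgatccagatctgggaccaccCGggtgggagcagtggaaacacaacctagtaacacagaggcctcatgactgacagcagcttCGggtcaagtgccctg

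Over its whole length the downstream peak had 12.8 CpG per kb and the Slc1a3 TSS peak 52.1 per kb. All 3 CpG of the stretch shown lay apart from each other.

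Kcnj10 codes for Kir4.1, the inwardly rectifying potassium channel by which Müller glia buffer potassium. Kcnj10 (ENSMUSG00000044708.4, chr1:174271341-174304216, plus strand) had no peak at its TSSs or in its gene body. Its window held 1 peak, chr1:174306342-174307385, which covered the TSS of Pigm, a mannosyltransferase gene of the glycosylphosphatidylinositol anchor pathway, 2126 bp past the end of Kcnj10. That peak was 1044 bp long with a pileup of 19.15, a fold enrichment of 5.70 and a q-value of 3.93e-09. It lay 35.0 kb from the Kcnj10 start. A peak nearer to the start fell outside the window, 28.4 kb upstream at Igsf8.

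Aqp4 codes for the water channel aquaporin-4, which is concentrated in the endfeet of Müller glia and astrocytes. Aqp4 (ENSMUSG00000024411.8, chr18:15547903-15562193, minus strand) was the only one of the 9 genes with no peak in its window. The nearest peak was 238 kb downstream, at a TSS of Kctd1. Of the 22367 protein-coding genes, 2676 lay farther from a peak than Aqp4 did. Kcnj10 and Aqp4, which work together at the endfeet, therefore both lacked a listed promoter peak at E14.

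Rlbp1 codes for CRALBP, the retinaldehyde-binding protein of Müller glia and pigment epithelium. Rlbp1 (ENSMUSG00000039194.8, chr7:86519757-86531913, minus strand) had no TSS peak. The peak in its window, chr7:86536519-86537694, began 4606 bp upstream and covered the TSS of Fanci, a DNA repair gene of the Fanconi anemia pathway that is transcribed in the opposite direction. The Fanci peak was 1176 bp long with a pileup of 13.01, a fold enrichment of 5.78 and a q-value of 5.02e-07. The starts of Rlbp1 and Fanci are 4902 bp apart. A promoter taken to begin 5000 bp before the TSS and end 1000 bp after it would therefore assign this peak to Rlbp1 and raise the count of genes with a TSS peak from 4 to 5.

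Apoe codes for apolipoprotein E, a lipid carrier secreted by glia. Apoe (ENSMUSG00000002985.9, chr7:20281458-20284515, minus strand) had the weakest TSS peak of the 4, chr7:20283912-20284610. It was 699 bp long with a pileup of 10, a fold enrichment of 3.14 and a q-value of 0.0258. By fold enrichment it stood at percentile 3.14 of TSS peaks and by pileup at percentile 6.86, and it was lost at a q-value limit of 0.01. The peak reached 95 bp upstream and 603 bp downstream of the start and held 6 of the 9 annotated TSSs. A much stronger peak in the same window, chr7:20300111-20301945, covered the TSSs of Tomm40, a subunit of the mitochondrial protein import pore, and of Gm20512. This peak was 1835 bp long with a pileup of 16.89 and a fold enrichment of 5.91, and lay 15.6 kb upstream of Apoe. Just beyond the other edge of the window, 30.0 kb downstream, was a peak at Clptm1.

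Clu codes for clusterin, a secreted chaperone. Clu (ENSMUSG00000022037.8, chr14:66587320-66600385, plus strand) had no peak at any of its 9 annotated TSSs. The only peak in its window, chr14:66572164-66572888, covered the TSS of Scara3, a scavenger receptor gene on the opposite strand, 14.4 kb upstream. That peak was 725 bp long with a pileup of 17.38, a fold enrichment of 5.88 and a q-value of 1.15e-08. The next peak was 77.5 kb upstream. The lipid carrier and the chaperone thus differed in the call, although the Apoe peak was among the weakest at any TSS.

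Vim and Gfap code for the intermediate filament proteins of Müller glia. Vimentin is also made by progenitors, whereas glial fibrillary acidic protein in the retina is known from astrocytes and from Müller glia under stress. Vim (ENSMUSG00000026728.3, chr2:13495554-13504453, plus strand) had the longest TSS peak of the 9 genes, chr2:13494439-13496808, at 2370 bp. It reached 1115 bp upstream and 1254 bp downstream of the start. Its pileup was 14.09, its fold enrichment 3.47 and its q-value 0.00176. The Vim peak was thus broad but shallow, at percentile 94.2 of TSS peaks by length, 30.7 by pileup and 9.26 by fold enrichment. Vim, Apoe and Slc1a3 each missed both of the stricter limits, although the pileup of Vim was above that of the other two. The ratio of pileup to fold enrichment, which is higher where the local background is higher, was 4.06 at Vim and 3.88 at Glul, against 3.19 at Apoe and 2.79 at Slc1a3.

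Gfap (ENSMUSG00000020932.8, chr11:102748650-102762226, minus strand) had no TSS peak. Its window held a peak shared by the divergent TSSs of Ccdc103 and Eftud2, chr11:102741633-102742857, which began 5793 bp past the 3′ end of Gfap. Ccdc103 is a gene of ciliary motility and Eftud2 codes for a component of the spliceosome. The peak was 1225 bp long with a pileup of 15.22 and a q-value of 4.08e-09, and its fold enrichment of 6.56 was the highest of the 10. The next peak on the other side was 23.5 kb upstream, at Kif18b.

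**Figure D1:**
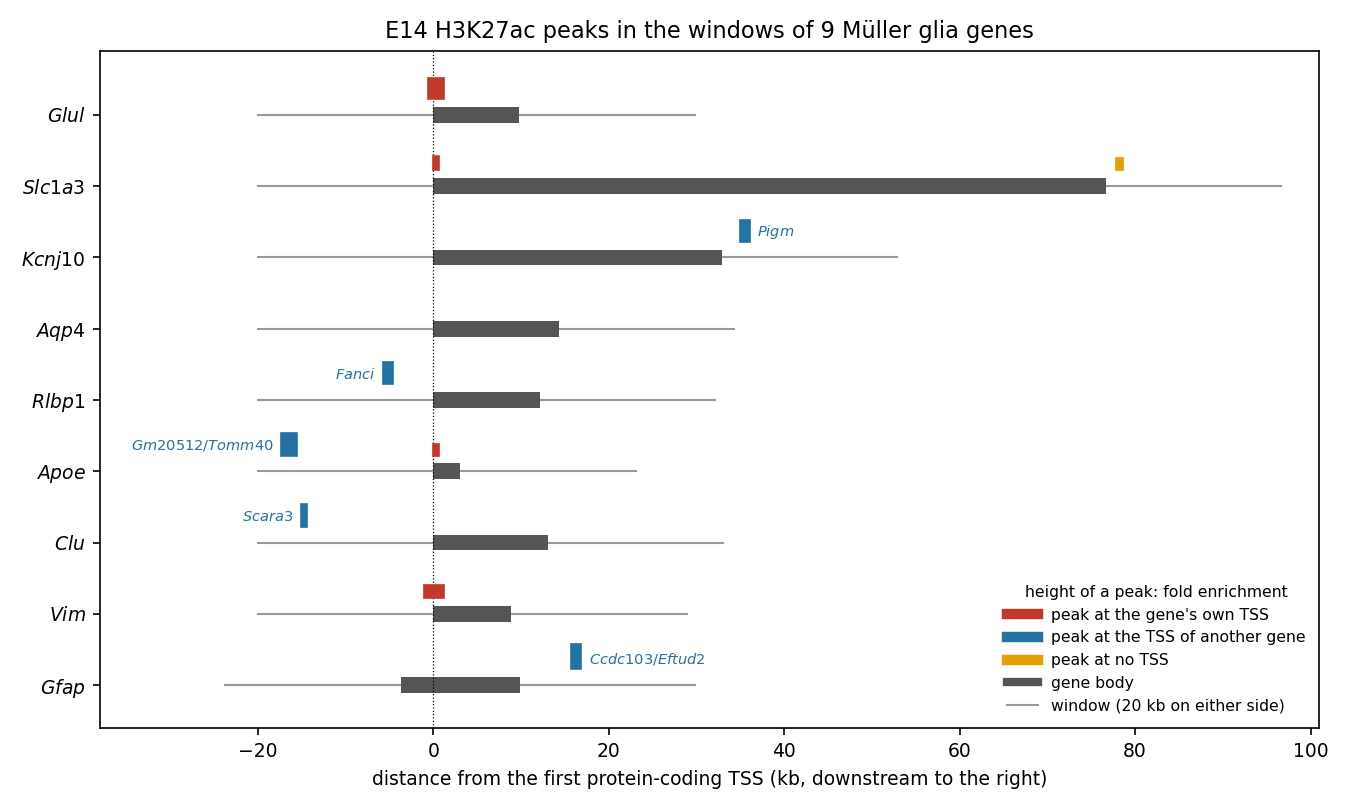
Windows of the 9 Müller glia genes, drawn with each gene running left to right from the most upstream TSS of a protein-coding transcript (x axis, distance in kb). Thin lines are the 20 kb extended windows, grey bars the gene bodies, and coloured boxes the E14 H3K27ac peaks, with box height in proportion to fold enrichment (3.14 to 6.56) and blue names giving the neighbour whose TSS the peak covers. Red boxes at 0 appear for Glul, Slc1a3, Apoe and Vim, and the window of Aqp4 is empty.

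Set against all genes, the 9 genes were not richer in acetylated promoters. A TSS peak was found for 4 of 9 genes, beside 49.8% of all protein-coding genes. With the stricter limits 1 of 9 genes kept a TSS peak, beside 37.8% of all. Any peak in the window was found for 8 of 9 genes, beside 63.5%, and no peak for 1 of 9, beside 36.5%. The order turned with no extension of the gene body (4 of 9 beside 50.6%) and without peaks at the TSS of another gene only (4 of 9 beside 53.3%). For 4 of 9 genes the window held no peak at the gene's own TSS but one at the TSS of another gene, beside 11.5% of all genes. A peak at no TSS was found in 1 of 9 windows, beside 10.4%. No window of the 9 genes held more than 2 peaks, and the median was 1 peak for the 9 genes and for all genes alike. The 9 genes had a median length of 13066 bp against 15427 bp for all genes.

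Of the 10 peaks in the windows, 5 covered the TSS of a neighbour alone, 4 the TSS of a Müller glia gene and 1 no TSS. The 5 neighbour peaks had fold enrichments of 5.70 to 6.56, at percentiles 77.3 to 89.9 of all TSS peaks. All 5 passed the stricter limits, as did 8628 of all 13463 peaks. Of all protein-coding genes, 11147 had a TSS peak and 8465 had one past these limits, so passing them was common. The 4 TSS peaks of the Müller glia genes had fold enrichments of 3.14 to 5.49, and the groups did not overlap in this value. They did overlap in pileup, with 13.01 to 19.15 at the neighbours and 10 to 21.26 at the Müller glia genes. For comparison, the median over all peaks at protein-coding TSSs was 16.31 in pileup and 4.71 in fold enrichment. None of the 10 peaks lay inside a gene body away from a TSS. The promoter call does not use the 20 kb extension, so the extension bears only on the counts of peaks in the windows. The outermost peaks inside the windows were 15.6 kb (Apoe) and 14.4 kb (Clu) from the gene, and those just outside 23.5 kb (Gfap), 28.4 kb (Kcnj10), 28.9 kb (Vim) and 30.0 kb (Apoe) from it.

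**Figure D2:**
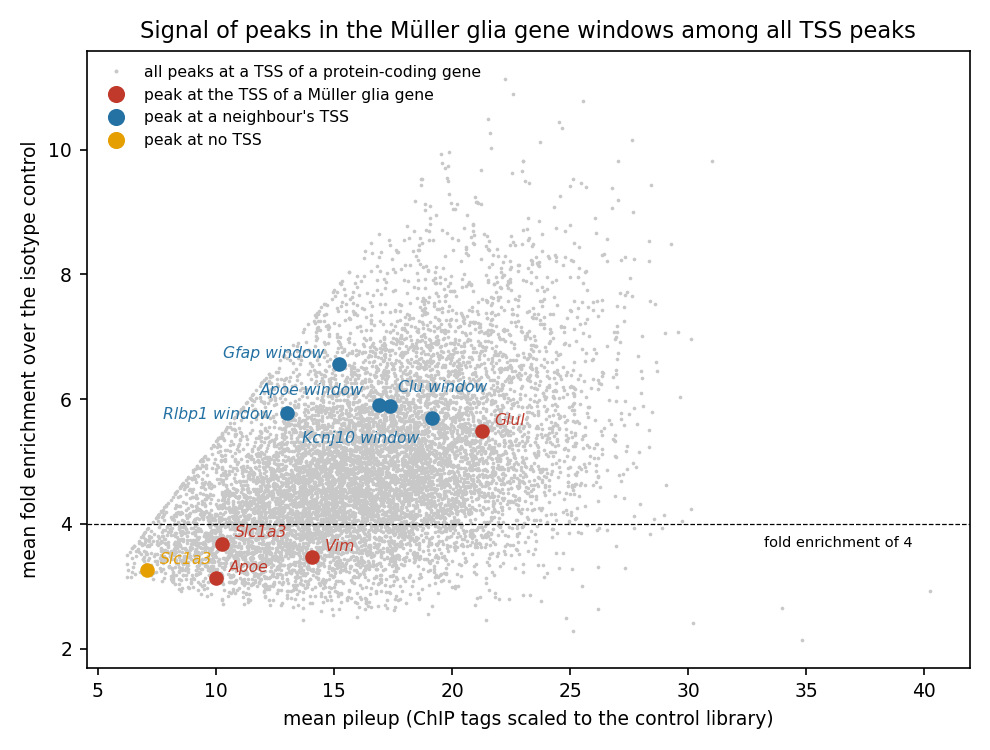
Mean pileup (x axis, ChIP tags scaled to the isotype control library) against mean fold enrichment (y axis) of the 10 peaks in the Müller glia gene windows (large points) and of all 10302 peaks at protein-coding TSSs (grey). The TSS peaks of Slc1a3, Apoe and Vim lie below the dashed line at a fold enrichment of 4, at 3.68, 3.14 and 3.47, whereas Glul and all 5 neighbour peaks lie above it.

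The CpG content of the promoters was not used in the choice of genes and was compared over 500 bp on either side of the TSS. CpG-rich promoters are commonly active in many cell types, and among all genes the observed over expected CpG ratio had a median of 0.756 with a TSS peak (n = 11142) and 0.241 without (n = 11217). Glul, at 0.697, was the richest of the 9 genes and fell in the 0.6 to 0.8 range, where 80.8% of genes had a TSS peak. Kcnj10, at 0.648, was in the same range without a TSS peak. Slc1a3 (0.554), Vim (0.529), Clu (0.477) and Gfap (0.422) were in the 0.4 to 0.6 range, where 46.7% of genes had one, and here Slc1a3 and Vim did and Clu and Gfap did not. Apoe (0.395), Aqp4 (0.294) and Rlbp1 (0.272) were in the 0.2 to 0.4 range, where only 14.4% of genes had one, and of these only Apoe did. Genes with and without a peak thus overlapped in CpG content among the 9, and the departures from the general pattern were Kcnj10 on the side without and Apoe on the side with a peak.

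**Figure D3:**
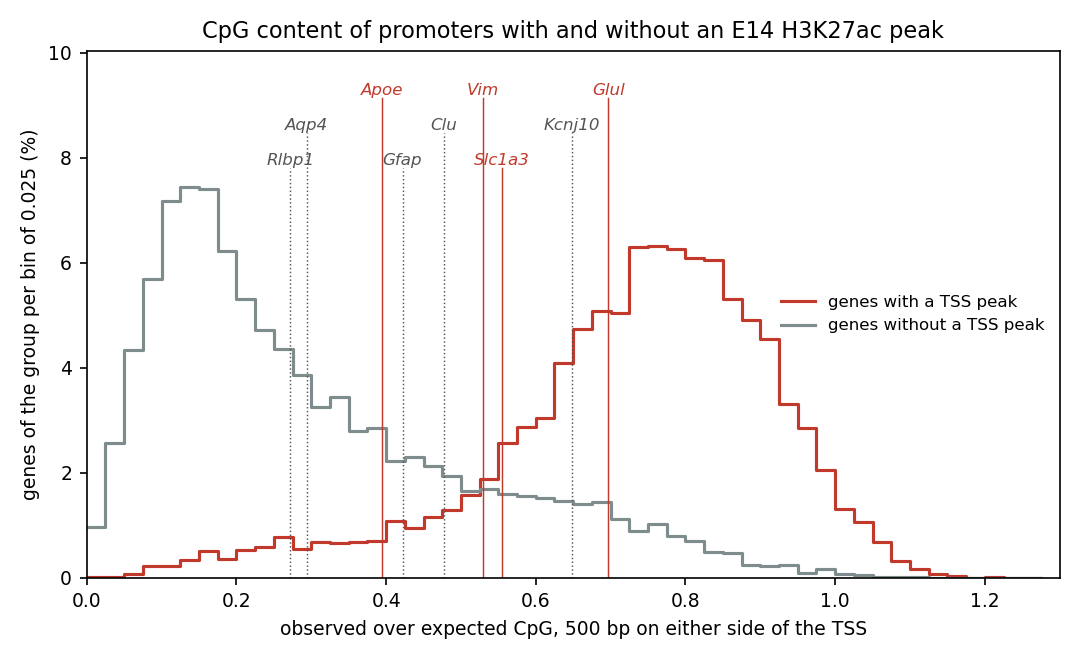
Distribution of the observed over expected CpG ratio (x axis) over 500 bp on either side of the TSS, as the percentage of genes of each group per bin of 0.025 (y axis), for genes with (red) and without (grey) an E14 TSS peak. Vertical lines place the 9 Müller glia genes, solid red for those with a TSS peak and dotted grey for those without, from Rlbp1 at 0.272 to Glul at 0.697.

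The letters TAATTA, a core that many homeodomain factors including LHX2 can bind, and CCAAT, the core bound by NFY, were searched on both strands in the 250 bp before and the 50 bp after the GENCODE vM1 start. TAATTA was found in 4.79% of all promoters and, of the 9 genes, only in Slc1a3. There it stood at chr15:8660779-8660784, 20 bp upstream of the GENCODE vM1 start and outside the peak. The RefSeq start of Slc1a3 is 43 bp further upstream, so by that start the motif lies downstream. CCAAT was found in 37.9% of all promoters and in 6 of the 9 genes. It stood at 128 and 65 bp upstream in Glul and at 140 bp in Vim, within their peaks. The matched RefSeq start of Vim lies 384 bp downstream of the GENCODE vM1 start used here. CCAAT also stood at 115 bp upstream in Slc1a3 and at 68 and 45 bp in Clu, outside any peak. In the promoters of Kcnj10 and Aqp4 it was likewise outside any peak. The motif was therefore present on both sides of the promoter call.

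Further genes of Müller glia were counted by their roles, 42 in all with the 9 genes left out (Rax and Aldh1l1 are also among the markers above). Many of the 42, such as Sox9, Nfib, Car14 and Sparc, are also on the study's curated list counted below. The counts by role and those of the curated list are therefore not independent. A TSS peak was found for 22 of the 42 (52.4%, 95% Wilson interval 37.7 to 66.6%), beside 49.8% of all genes, and 16 passed the stricter limits (38.1%), beside 37.8% of all. The roles differed widely in their counts. Among regulators that Müller glia share with progenitors, 10 of 13 had a TSS peak and 9 passed the stricter limits, and the median peak length was 3370 bp. The longest were those of Rax at 6096 bp and Sox2 at 5974 bp, which code for a homeodomain and an SRY-box factor of the progenitor. Sox8, Nfia and Nfix had none, of which the latter pair code for nuclear factor I proteins of late progenitors and glia.

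Membrane transport, water and gap junction genes, the group closest in role to Slc1a3, Kcnj10 and Aqp4, had 2 of 8 with a TSS peak, and neither passed the stricter limits. Gja1, which codes for the gap junction protein connexin 43, had a peak of 1962 bp with a fold enrichment of 3.92. Slc38a3, a glutamine transporter gene, had one of 505 bp with a fold enrichment of 3.18. Slc1a2, Slc14a1, Aqp1, Kcnj2, Mlc1 and Abca8a had none, and their nearest peaks were 80.6 kb (Mlc1) to 616 kb (Kcnj2) away. Slc1a2 codes for the glutamate transporter GLT-1, Slc14a1 for a urea transporter, and Aqp1 and Kcnj2 for a water and a potassium channel.

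Of metabolic and retinoid genes, the group closest to Glul and Rlbp1, 4 of 8 had a TSS peak and 3 passed the stricter limits. Rdh10, a retinol dehydrogenase gene, had a peak of 2966 bp with a pileup of 19.72. Car14, a membrane-bound carbonic anhydrase gene, had one of 2038 bp with a pileup of 12.82. Rgr, Crym, Aldoc and Aldh1l1 had none, although a peak lay 0.252 kb from the Aldoc gene at none of its TSSs. Of cytoskeletal and lipid-binding genes 1 of 5 had a TSS peak, that of Nes (3825 bp), which codes for the progenitor filament protein nestin, and Fabp7, S100b, S100a16 and Cav1 had none. Of secreted and surface proteins, 5 of 8 had one, the longest at Dkk3 (2866 bp) and Sparc (2805 bp), and Spon1, Cd44 and Cd9 had none.

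The study's own curated list of retinal genes was counted by its RPC marks. This list marks genes by cell type, and its RPC marks come from RNA-Seq of the study, so they are not independent of these retinas. The labels of the sorted E14 RNA-Seq sample disagree on its age (E14 in the title, postnatal day 2 in another field), which leaves what the early and late marks stand for less certain. Of the list's 148 Müller glia genes found in the annotation, 123 had a TSS peak (83.1%, interval 76.3 to 88.3%), beside 49.8% of all genes, and 98 passed the stricter limits (66.2%), beside 37.8%. Genes also marked for early RPCs had a TSS peak in 85 of 94 cases (90.4%, 82.8 to 94.9%). Genes marked for late but not early RPCs had one in 16 of 27 (59.3%, 40.7 to 75.5%), and genes marked for neither in 22 of 27 (81.5%, 63.3 to 91.8%). These intervals cover counting error only, genes of a single list are not replicates, and the differences between the groups were not tested.

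The list marks 8 of the 9 genes for Müller glia, all but Gfap, and none for early RPCs. Slc1a3, Kcnj10 and Rlbp1 are marked for late RPCs, and of these only Slc1a3 had a TSS peak. Of the other 24 late-only genes 15 had one, such as Zfp36l1 (7440 bp), Notch1 (4087 bp) and Nfib (3025 bp), and 9 had none, among them Nfia, Sox8, Cd9 and Crym. Glul, Vim, Apoe, Clu and Aqp4 carry neither RPC mark, and 3 of these 5 had a TSS peak, against 19 of the other 22. The 5 genes of this kind with the longest TSS peak were Cfl1 (4010 bp), Eno1 (2807 bp), Sparc (2805 bp), Vim (2370 bp) and Car14 (2038 bp), of which the actin-binding cofilin and the glycolytic enolase are made in most cells. The group with neither mark thus held general cellular genes beside glial ones. Together, the 8 marked genes had 4 TSS peaks with 1 past the stricter limits, below the shares of the curated list as a whole, a difference that was not tested.

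**Figure D4:**
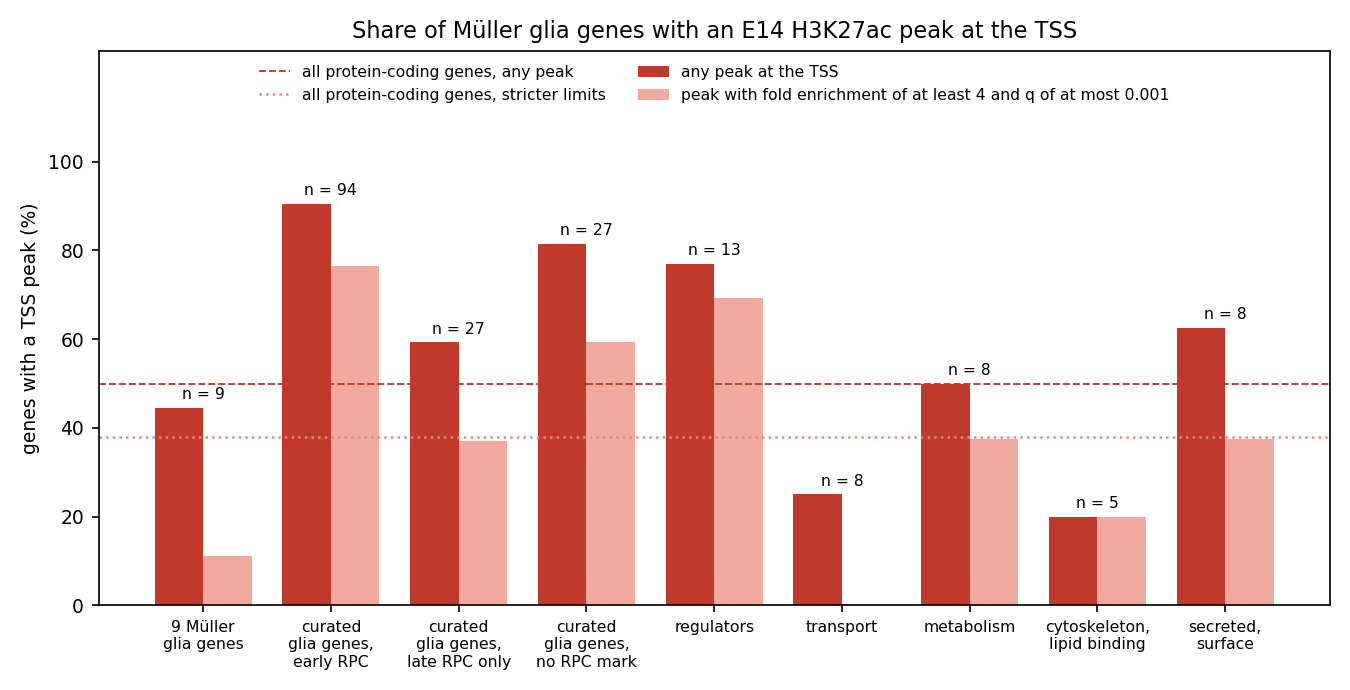
Percentage of genes with an E14 H3K27ac peak at the TSS (y axis) for the 9 Müller glia genes, for curated Müller glia genes by RPC mark, and for further Müller glia genes by role. Dark bars count all peaks, pale bars those past the stricter limits, n is the number of genes, and the lines at 49.8% and 37.8% give the shares of all protein-coding genes. Genes with an early RPC mark have the highest bars of both kinds, and transport genes have no pale bar. The sets share genes, so the bars are not independent.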

How the data were processed

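H3K27ac ChIP-Seq was performed by the authors on whole E14 retinas of CD1 mice. By the paper's methods reads were aligned to mm9 with Bowtie2 and uniquely mappable reads were kept. Per the file headers, the authors pooled 2 replicates and called broad peaks with MACS 2.1.0.20140616 (q cutoff 0.05, broad cutoff 0.1, at most 1 tag per position) against 1 isotype control, scaling the larger library down. The pileup is a coverage signal computed by the authors' MACS run and averaged over each region. The deposited fold enrichment is the ratio of that pileup to the local control background. The −log10 p- and q-values were deposited as averages over each region, and q is given here as 10 raised to the negative of that value. The ChIP had 12.3 filtered tags per control tag, and 67% of control tags were redundant, so the control limits the precision of fold enrichment.

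Peaks were intersected (at least 1 bp) with GENCODE vM1 genes, TSSs extended by 1000 bp, and gene bodies extended by 20000 bp, in Python 3.11.15 (pandas 2.3.3, numpy 2.4.6, scipy 1.17.1, matplotlib 3.10.9). The assignment code was tested on simulated data. All 9 genes are described in full. Further genes were listed by role, with the longest TSS peaks and genes without one named. The 9 genes and the lists were chosen with earlier results of these data known. Alternatives covered TSS and gene windows, peak limits and TSS choice. With a single pooled list no test was possible. The other samples were not analysed here, and some genes are not reported here.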

Additional observations from a re-analysis of the deposited data

How the results depend on the processing

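With 4 genes having a TSS peak as the reference, the count was 1 (Glul) under the stricter limits (fold enrichment no lower than 4, q-value no higher than 0.001). With 8 genes having any peak in the window as the reference, the count was 4 with no extension of the gene body and 4 without peaks at the TSS of another gene only. The 10 peaks in the windows became 4 with no extension, 18 with an extension of 50 kb, and 6 under the stricter limits. These changes follow from the smaller or larger windows and the fewer peaks counted. In the other 34 of 40 settings counts stayed within 1.5 times of the reference. In these, the TSS count was 5 with a promoter reaching 5000 bp upstream, 3 at a q-value limit of 0.01 (without Apoe) and 3 when peaks shared with another protein-coding gene were left out (without Glul), the last setting being chosen after seeing the data. The share of all genes with a TSS peak ran from 37.8 to 51.4% and that with any peak in the window from 50.6 to 72.1%. No paired analysis was possible because the list pools both replicates.

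The depth of the isotype control limits every fold enrichment given. A gene without a listed peak was below the caller's limit and cannot be called free of acetylation, and no bound on its level can be given. Enhancers beyond 20 kb were not assigned, and which cells carried a peak was not tested.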

Other observations

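The curated list also marks genes of rods and bipolar cells. Of its rod genes with no RPC mark, 76 of 140 had an E14 TSS peak (54.3%, 95% Wilson interval 46.0 to 62.3%), and of its bipolar cell genes with no RPC mark, 50 of 116 (43.1%, 34.5 to 52.2%). The share for Müller glia genes with no RPC mark was 22 of 27 (81.5%, 63.3 to 91.8%), and that of all protein-coding genes 49.8%. Under the stricter limits the counts were 58 of 140 for rods (41.4%), 30 of 116 for bipolar cells (25.9%) and 16 of 27 for Müller glia (59.3%), beside 37.8% of all genes. These intervals cover counting error only, the lists were drawn from different published sources, and the difference was not tested. The Müller glia group with no RPC mark held general cellular genes such as Cfl1 and Eno1. By the study's description the RPC marks stand for enrichment in sorted cell fractions. A gene without such a mark may thus still be expressed in progenitors.

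Peaks away from every TSS were counted near the curated Müller glia genes, with no test of the differences. At least 1 such peak lay within 20 kb of 48 of the 148 genes (32.4%), beside 10.4% of all protein-coding genes. The count was 11 of 27 for the late-only group, 32 of 94 for genes with an early RPC mark and 5 of 27 for genes with neither mark. Of the 42 genes counted by role 12 had one (28.6%). By role these were 7 of 13 regulators shared with progenitors and 3 of 8 secreted and surface proteins. They were 1 of 8 transport genes, 1 of 5 cytoskeletal and lipid-binding genes and 0 of 8 metabolic and retinoid genes. With so few genes per role these counts are imprecise.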
